A study of Rattus norvegicus with 6 samples.

Results

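The claudins are tetraspan membrane proteins that seal the space between neighbouring epithelial cells, and 9 of them were followed in nuclei of rat ileum: Cldn1, Cldn2, Cldn3, Cldn4, Cldn7, Cldn8, Cldn12, Cldn15 and Cldn23. They were taken by gene symbol, whatever their values, from the 28282 genes listed over 6 droplet single-nucleus RNA libraries, in which each nucleus carries a barcode and each captured RNA a unique molecular identifier (UMI). Both groups were wild-type male Sprague-Dawley rats of 6 weeks, 3 per group with 1 library per rat, and ileum was taken 24 h after surgery. The severe acute pancreatitis rats (SAP) had received 3% sodium taurocholate into the pancreatic duct at 0.1 mL per 100 g, against the flow, with the duct then briefly clamped. The control rats (CON) had a laparotomy with no infusion, so the groups also differ by the infusion and the clamping, while pentobarbital anaesthesia, surgery and fasting afterwards were shared. All libraries carry the same batch label.

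Of 90461 barcodes, 40970 passed the study's limits, at 3189 to 9246 nuclei and 5549260 to 28771508 UMIs per library. CON replicate 2 and SAP replicate 1 list barcodes down to 545 and 502 UMIs, against 1000 in the other 4 libraries. The median mitochondrial share was 0.125% to 0.700% in CON and 0.387% to 1.84% in SAP. Nuclei were grouped into 23 clusters with the claudins and their partners left out of the clustering genes, and each cluster was named from marker lists where a list led clearly. The Paneth name also needed an alpha-defensin among the leading genes, so cluster 7 stayed unnamed although the Paneth list led in it. In 15 of the 16 named classes every listed marker present in the tables was higher than in all other nuclei, and in stem/TA-like nuclei 15 of 16 were. The same lists gave the names, so this is not a separate check of them. Epithelial classes and clusters held 31271 nuclei, or 76.3% of the total. The 3 enterocyte-like clusters were kept apart where stated: cluster 4, cluster 6, in which the villus-tip markers were highest at 3338 to 5814 UMIs per 1000000 UMIs of the class (CPM), and cluster 9. In clusters 4 and 9 the same markers summed to 255 to 1097 CPM.

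Tight junctions form a belt near the luminal edge of the epithelial cell, where claudin strands of adjacent cells meet. Some claudins tighten this belt against ions and solutes, among them Cldn1, Cldn3, Cldn4 and Cldn8, and others form pores in it, with Cldn2 and Cldn15 the main cation and water channels of the small intestine. Cldn7 sits largely on the lateral membrane, while the roles of Cldn12 and Cldn23 in the gut are less settled. The intestinal epithelium is renewed from dividing crypt cells that move up the villus and are shed at its tip, and the claudin composition is known to change along this path.

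The members differed widely in how often they were caught. Cldn3 gave 19533 UMIs, Cldn7 17374, Cldn4 14927, Cldn15 14375 and Cldn2 7201, which is enough for a value in most classes. Cldn23 gave 2201 and Cldn12 1798, Cldn8 146 and Cldn1 47. Cldn1 passed the filter on low counts in no comparison, and Cldn8 only in the sums over all nuclei and over all epithelial nuclei. These totals also depend on transcript length and are not a ranking of expression.

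Genes of one cell type were also counted in nuclei of others, which limits the reading of low values. Epcam, the pan-epithelial adhesion protein that binds Cldn7, reached a median of 65.8% of its epithelial level in T-like nuclei over the 6 libraries, 63.5% in fibroblast-like and 53.1% in smooth muscle cell (SMC)-like nuclei. In the other direction, fibroblast markers summed to 12.7 to 104 CPM in epithelial nuclei against 317 to 1901 CPM in fibroblast-like nuclei, and T cell markers to 229 to 559 CPM against 601 to 2416 CPM in T-like nuclei. For Cldn3 the T-like level was 58.2% of the epithelial level, for Cldn7 57.2%, for Cldn4 45.8%, for Cldn2 72.6% and for Cldn15 90.6%. A claudin level is therefore given below beside the mean of T-, fibroblast- and SMC-like nuclei of the same library, and a class at or below that mean was read as background.

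Among the barrier-forming claudins, Cldn4 differed most between SAP and CON. In all epithelial nuclei its level, in CPM scaled by the trimmed mean of M-values (TMM), was 60.4, 67.8 and 130 in CON replicates 1, 2 and 3 and 336, 298 and 306 in SAP replicates 1, 2 and 3. Every SAP library lay above every CON library, and the lowest SAP value was well above the highest CON value. The log2 fold change was 1.87 ± 0.32 (SE, n = 3 against 3), with an adjusted p of 0.389 over all 17061 genes tested by edgeR's quasi-likelihood test, so Cldn4 did not pass the threshold of 0.05. Its unadjusted p of 0.00042 ranked 15 among all genes tested.

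None of the 8 members tested passed in all epithelial nuclei, where 0% of all genes did, with 11.4% at an unadjusted p under 0.05. Of the 8 members, 1 had groups that did not overlap and lay higher in SAP, beside 6.63% of all genes. In all nuclei Cldn4 was 53.5, 69.7 and 105 TMM-scaled CPM in CON and 319, 282 and 193 in SAP, again without overlap (4.9% of all genes were higher in that way), and the log2 fold change was 1.80 ± 0.33 with an adjusted p of 0.545 by edgeR, where 0% of all genes passed. With DESeq2, the alternative tool, Cldn4 passed in both sums, at an adjusted p of 0.000235 in epithelial nuclei, where it called 0.928% of the genes fitted, and 0.00174 in all nuclei, where it called 0.687%. The 2 libraries that list barcodes under 1000 UMIs, 1 per group, held 74.2 CPM of Cldn4 in CON and 296 CPM in SAP. In the other 4 it averaged 99.5 and 329.5 CPM. The groups did not overlap, so any such split keeps the direction, and this is no separate support.

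**Figure D1:**
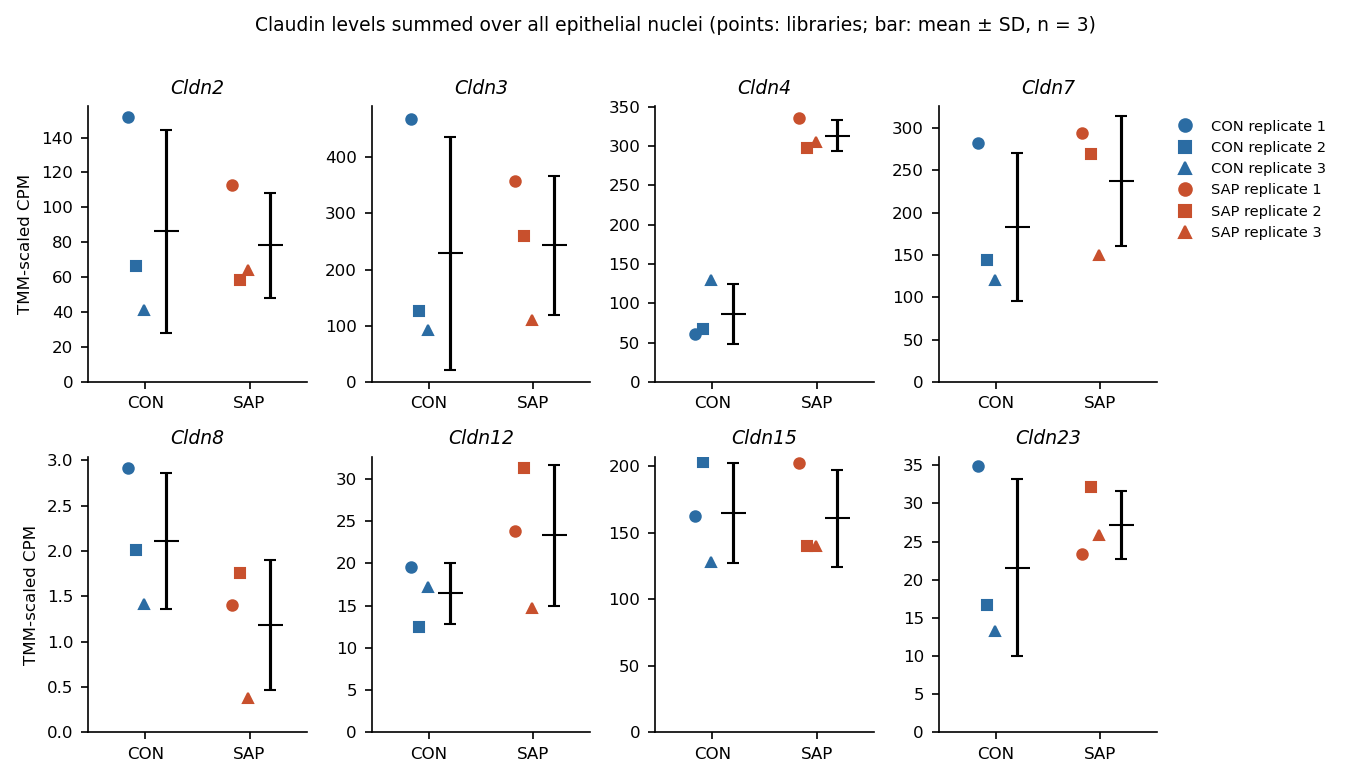
Level of each claudin tested, in TMM-scaled CPM (y axis, from 0), in UMIs summed over the epithelial nuclei of each library (points, by replicate number), with the mean and SD of 3 libraries at the side. Cldn4 separates the groups, at 60.4 to 130 in CON and 298 to 336 in SAP, and in the other 7 panels the groups overlap.

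Among the other barrier-forming claudins, those tested overlapped between the groups in TMM-scaled CPM. Cldn3 was 468, 127 and 91.8 TMM-scaled CPM in the epithelial nuclei of CON replicates 1, 2 and 3 and 358, 261 and 111 in those of SAP. The libraries numbered 1 were the highest and those numbered 3 the lowest in both groups. The log2 fold change was 0.08 ± 0.66 (edgeR adjusted p = 0.973), and it moved to 1.17 without CON replicate 1, still not called. Cldn8, a claudin best known from distal nephron and colon, was at 2.91, 2.01 and 1.42 TMM-scaled CPM in CON and 1.40, 1.76 and 0.377 in SAP. These rest on 125 UMIs in all, and the log2 fold change of -0.87 ± 0.65 was not called (edgeR adjusted p = 0.634). In CPM without TMM the groups did not overlap for Cldn8, at 2.01 ± 0.28 in CON and 1.12 ± 0.60 in SAP (SD, n = 3). The exact permutation p, in a test that was not planned, was 0.1, the smallest possible. With TMM, where Cldn8 overlapped, 12.5% of all genes were lower in SAP without overlap. The share of all genes in CPM without TMM is not given here. Cldn1 had 21 UMIs in epithelial nuclei, 8 of them in CON and 13 in SAP, and no test.

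Neither gene of the pore-forming pair was called, and for Cldn2 the SE was too wide to tell no difference from a clear one. Epithelial Cldn2 reached 152, 66.2 and 41.0 TMM-scaled CPM with sham surgery against 113, 58.3 and 63.8 with SAP, so that its log2 fold change was -0.14 ± 0.49 (edgeR adjusted p = 0.929). Cldn15 reached 163, 203 and 128 with sham surgery against 203, 140 and 140 with SAP, with a log2 fold change of -0.04 ± 0.25 (edgeR adjusted p = 0.969). For both genes the groups spanned much the same range, and the SE of Cldn15 was the smallest among the 8 members. Without CON replicate 1, the library highest for Cldn2, the log2 fold change of Cldn2 moved to 0.57, still not called.

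Cldn7, Cldn12 and Cldn23 had positive log2 fold changes and none was called. Cldn7 was 283, 145 and 120 TMM-scaled CPM in the epithelial nuclei of CON and 294, 269 and 150 in those of SAP. Its log2 fold change was 0.38 ± 0.39 (edgeR adjusted p = 0.728) and moved to 0.87 without CON replicate 1, not called. Within each pair of libraries with the same number Cldn7 was the higher in SAP, and with the replicate block its log2 fold change was 0.42 ± 0.22 (edgeR adjusted p = 0.411). For Cldn12 the log2 fold change was 0.50 ± 0.35 and for Cldn23 0.33 ± 0.39, with edgeR adjusted p of 0.605 and 0.764. In each of the 3 genes the groups overlapped.

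**Figure D2:**
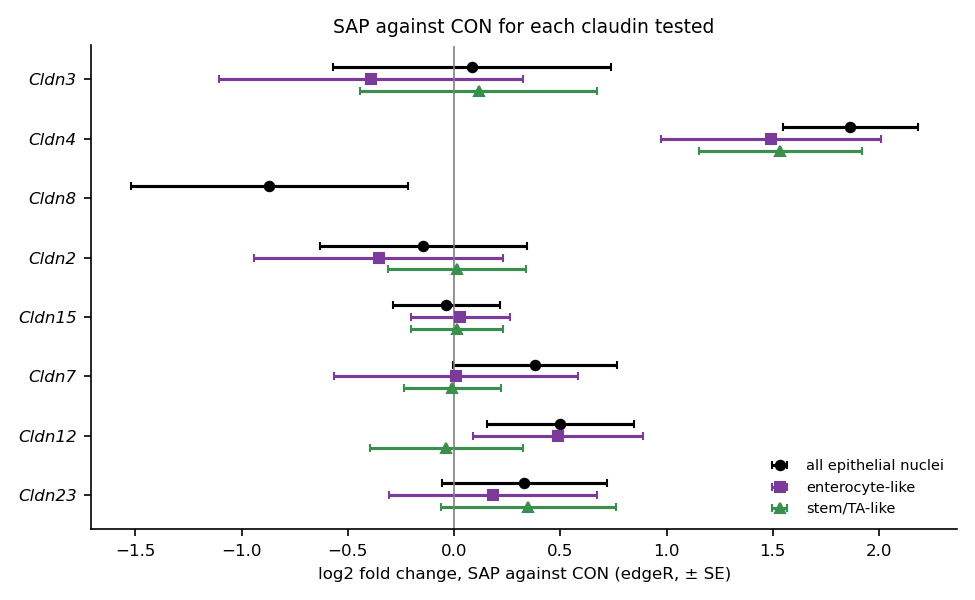
Log2 fold change of SAP against CON (x axis) for each claudin tested (y axis), from edgeR, with bars of 1 SE, in UMIs summed over all epithelial, enterocyte-like and stem/TA-like nuclei. Cldn4 lies at 1.87, 1.49 and 1.54 in these sums, and the other members lie between -0.87 and 0.50.

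Each of the 16 groups that held 10 or more nuclei per library was then tested on its own, which gave 84 tests of members. None was called (0.0376% of all gene tests over these fits were). Cldn4 had a positive log2 fold change in all 8 epithelial classes and clusters in which it was tested, from 0.88 in enteroendocrine-like nuclei to 1.85 in cluster 3, an unnamed epithelial group led by Reg1a, and its lowest adjusted p by edgeR was 0.225, in tuft-like nuclei. In 7 of the 8 its groups did not overlap, and they overlapped in enterocyte-like nuclei, where Cldn4 was highest. Beside this, 6.61% of all gene tests in those fits were higher without overlap (5.29% to 7.99% by fit). The 8 fits share the same 6 libraries, so they are not independent repeats. Some of the 7 were near background for Cldn4. The cluster 1 level was below the non-epithelial mean in every library, at 0.511 to 0.909 times, and was read as background. Only 2 libraries exceeded that mean for cluster 7, at 0.836 to 1.75 times over all libraries. For the stem/TA-like class only 1 did. That mean was exceeded in 6 libraries by goblet-like nuclei, in 5 by tuft-like, in 4 by enteroendocrine-like and in 3 by cluster 3 nuclei. Cldn4 was also higher in all 6 non-epithelial classes and clusters tested, by 0.87 to 1.39 on the log2 scale. There was no overlap in 3 of them (5.68% of all gene tests in those fits, 4.18% to 8.63% by fit). T-like nuclei, which do not form tight junctions, held 27.5, 57.5 and 65.9 CPM of Cldn4 in CON and 85.8, 137 and 93.2 in SAP. The part of free RNA, caught in droplets with a nucleus of another type, in the differences within classes was not tested. For the other members the log2 fold changes over epithelial classes ranged from -0.39 to 0.75, and 1 test had groups without overlap, that of Cldn7 in Paneth-like nuclei, at 84.7, 76.4 and 78.6 TMM-scaled CPM in CON and 178, 141 and 96.5 in SAP (4.49% of all genes were higher in this way, edgeR adjusted p = 0.967). That level was read as background, since it was above the non-epithelial mean in 1 of 6 libraries, at 0.328 to 1.18 times. Paneth-like nuclei, without the unnamed cluster 7, numbered 17 to 412 per library, and 412 were in CON replicate 1.

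The highest Cldn4 levels lay in 1 group of enterocytes. In cluster 6, the cluster with the highest villus-tip markers, Cldn4 was 752, 744 and 1283 CPM in CON replicates 1, 2 and 3 and 1562, 799 and 2403 CPM in SAP. SAP replicate 2 fell inside the CON range. The means were 927 ± 309 in CON and 1588 ± 803 in SAP (SD, n = 3, exact permutation test, two-sided p = 0.2, the smallest possible with 3 against 3 being 0.1), a test added after the values were seen. These levels were 4.70 to 22.2 times the mean of the non-epithelial classes of the same library, with SAP replicate 2 at 4.70 and the other 5 libraries at 15.8 or more. With every nucleus thinned to 1200 UMIs, 57.5% ± 13.1 of cluster 6 nuclei held a Cldn4 UMI (SD, n = 6), against 8.19% ± 4.22 of T-like nuclei, at median depths of 1869 and 1972 UMIs. Without thinning the shares were 68.4% and 18.1%.

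The other enterocyte-like clusters held less Cldn4. Cluster 4 had 24.4, 38.2 and 39.4 CPM in CON and 99.9, 162 and 111 in SAP, without overlap (5.72% of all genes were higher without overlap there). Against the non-epithelial mean of the same library, cluster 4 was above it in 2 of 6 libraries, both SAP, at a ratio of 0.522 to 1.25. Cluster 9 had 22.3, 10.2 and 114 CPM in CON, the second of these on 1 UMI, and 222, 213 and 209 in SAP, without overlap (4.04% of all genes), and was above the non-epithelial mean in CON replicate 3 and in all 3 SAP libraries, at ratios of 0.587, 0.216 and 1.51 (CON) against 2.78, 1.25 and 1.93 (SAP). In cluster 3 the ratios were 0.918, 0.842 and 0.786 (CON) against 1.46, 1.30 and 1.11 (SAP), so that each SAP library and no CON library was above that mean. The level above the non-epithelial mean, a measure compared after the values were seen, did not overlap between the groups and was higher in SAP in clusters 3, 4 and 9 (5.03%, 8.38% and 7.74% of all genes). It overlapped in the other epithelial classes and clusters, cluster 6 among them. In cluster 4 the nearest libraries were at -8.80 CPM (CON replicate 2) and -8.21 CPM (SAP replicate 2), both below that mean. Endothelial-like nuclei, which are not part of that mean, held 107 ± 52.1 CPM, and cluster 3 held 98.6 ± 70.5 CPM (SD, n = 6). Stem/TA-like nuclei, the dividing crypt cells, held 26.2, 34.0 and 40.2 CPM in CON and 67.4, 174 and 66.3 in SAP and were above the non-epithelial mean in 1 library of 6, so their Cldn4 was read as background. Goblet-like nuclei, the mucus-secreting class, were above it in all 6, at 1.49 to 4.78 times, with 82.4, 130 and 126 CPM in CON and 381, 254 and 183 in SAP. There the log2 fold change was 1.36 ± 0.32 (edgeR adjusted p = 0.487), and the adjusted p by DESeq2 was 0.0469, where DESeq2 called 0.184% of the genes fitted.

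**Figure D3:**
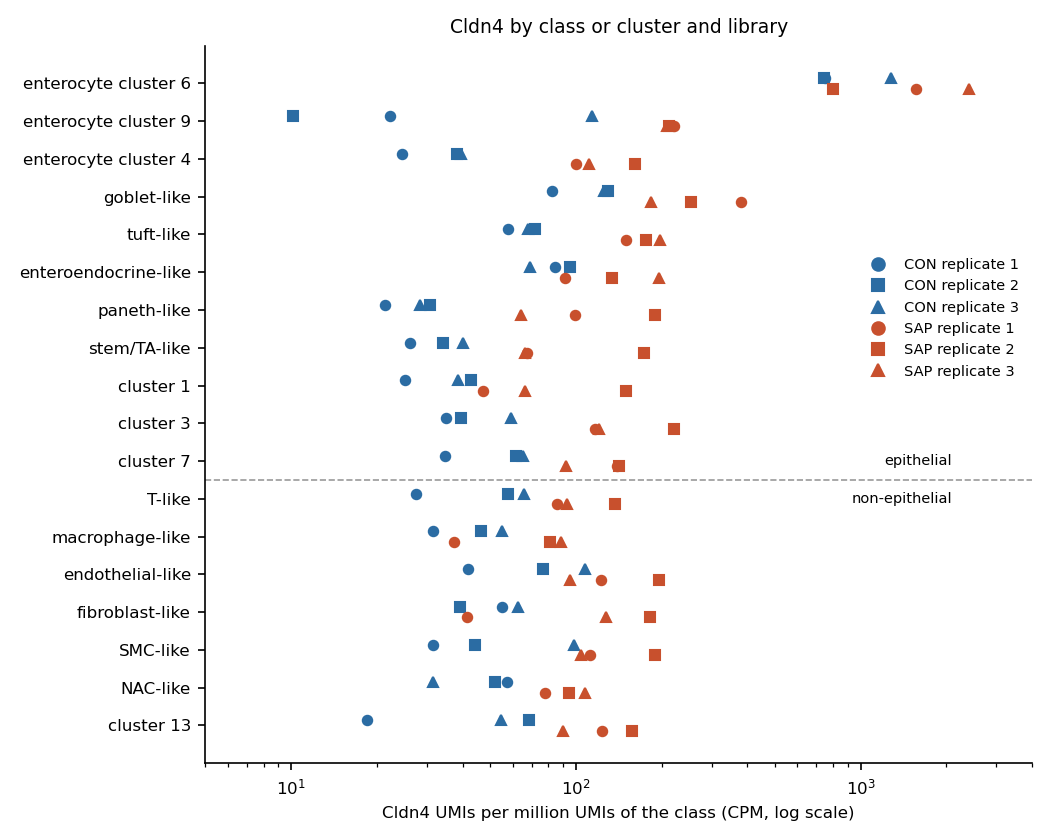
Cldn4 level in CPM (x axis, log scale) in each class or cluster (y axis) and library (points, by group and replicate number), with epithelial groups above the dashed line. Cluster 6 stands at 744 to 2403 CPM, goblet-like nuclei at 82.4 to 381, and most other epithelial groups share the range of the non-epithelial ones.

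The proportion of cluster 6 among epithelial nuclei was higher in every SAP library than in any CON library. It stood at 1.67%, 2.71% and 6.87% for CON against 10.2%, 17.8% and 10.5% for SAP. The exact permutation p, in a test that was not planned, was 0.1, the smallest possible. Mean shares of some other groups in all nuclei differed too, at 5.56% ± 0.92 in CON and 13.9% ± 10.1 in SAP for cluster 4 (SD, n = 3). There SAP replicate 3 lay inside the CON range. Stem/TA-like nuclei held 27.5% ± 10.3 and 9.85% ± 5.44. The epithelial difference of Cldn4 is therefore given again below with cluster 6 left out and with the mix of classes held fixed. Cluster 6 supplied 26.9%, 26.4% and 61.8% of the epithelial Cldn4 UMIs in CON and 60.0%, 48.1% and 71.9% in SAP. In epithelial nuclei outside it, a sum chosen after the values were seen, Cldn4 was 33.1, 56.1 and 63.7 CPM in CON and 134, 176 and 120 in SAP, a log2 ratio of 1.49 (5.08% of all genes were higher without overlap). They exceeded the T-like level of the same library in CON replicate 1 and in every SAP library, and lay just below it in CON replicates 2 and 3. Against the mean of T-, fibroblast- and SMC-like nuclei they were below in CON replicates 1 and 3. They were above that mean in CON replicate 2 and in every SAP library, though only slightly so in SAP replicates 2 and 3. The level above that mean overlapped between the groups, with CON replicate 2 further above it than SAP replicate 2. Cldn4 was itself higher in SAP in T-, fibroblast- and SMC-like nuclei, at log2 fold changes of 1.20, 1.22 and 1.17 by edgeR, none called. With the mix of 9 epithelial classes and clusters held at 1 fixed set of weights, in which the 3 enterocyte-like clusters count as 1 class, Cldn4 was 53.9, 97.8 and 158 CPM in CON and 258, 230 and 346 in SAP. The groups again did not overlap (5.1% of all genes were higher in this way), and the exact permutation p was 0.1, the smallest possible. Of the other members, Cldn8 did not overlap either, at 2.76, 2.24 and 1.78 CPM in CON and 1.54, 1.49 and 0.451 in SAP (5.72% of all genes were lower in this way, exact permutation p = 0.1), and the remaining 7 overlapped.

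Position along the crypt and villus was tested by comparing enterocyte-like with stem/TA-like nuclei within each rat. Of the 7 members tested, 6 were called by edgeR, beside 51.1% of all 14224 genes, and 5 of them were higher in enterocyte-like nuclei, beside 27.6% of all genes. Cldn4 differed most and was higher by 3.28 ± 0.39 on the log2 scale (SE, edgeR adjusted p = 0.000136), at 57.6 ± 47.2 in stem/TA-like and 551 ± 386 in enterocyte-like nuclei (TMM-scaled CPM, SD, n = 6). The stem/TA-like level was read as background, so this fold is against a background level, and the same holds in part for Cldn12, which was above the non-epithelial mean in 3 of 6 libraries in stem/TA-like nuclei. Cldn7 was higher by 1.64 ± 0.31 (edgeR adjusted p = 0.00174), Cldn23 by 1.51 ± 0.24, Cldn3 by 1.43 ± 0.21 and Cldn12 by 1.32 ± 0.19, each in 6 of 6 libraries with TMM scaling. These values depend on the scaling. With the library total alone in place of TMM, the median log2 difference of all genes moved from 0.09 to -0.41 and the genes called from 3931 higher and 3331 lower to 2095 higher and 6094 lower. The same 6 members were called in the same directions, with Cldn4 at 2.78, Cldn7 at 1.14, Cldn23 at 0.98, Cldn3 at 0.93, Cldn12 at 0.80 and Cldn2 at -1.03. In CPM without TMM, however, Cldn7 in CON replicate 2 was lower in enterocyte-like nuclei, at 166 against 171 in stem/TA-like nuclei.

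Of the pore-forming claudins, Cldn2 was lower in enterocyte-like nuclei, by 0.51 ± 0.15 on the log2 scale (edgeR adjusted p = 0.010), and in 5 of 6 libraries (23.4% of all genes were called lower). It was highest in cluster 3, at 132 ± 43.7 CPM, and in stem/TA-like nuclei, at 114 ± 30.1 CPM (SD, n = 6), and cluster 3 exceeded stem/TA-like nuclei in 6 of 6 libraries by 17.7 ± 16.5 CPM. Of the 3681 nuclei of cluster 3, 1810 were in CON replicate 1 and 708 in SAP replicate 1. Both were above the non-epithelial mean in every library, at 1.83 to 3.28 times in cluster 3 and 1.72 to 2.75 times in stem/TA-like nuclei. With the enterocyte-like clusters taken as 1 class, the next was cluster 1 at 69.2 ± 17.4 CPM, below stem/TA-like nuclei in 6 of 6 libraries, and all later neighbours from cluster 1 down differed by less than the SD of their difference. The enterocyte-like clusters were not alike in Cldn2: cluster 9 had 85.5 ± 22.0 CPM, above the non-epithelial mean in 6 of 6 libraries at 1.35 to 2.01 times, cluster 4 was above it in 3 of 6, and cluster 6 in 1 of 6.

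Cldn15 was not called between the classes, at a log2 difference of 0.02 ± 0.10 (edgeR adjusted p = 0.852), and enterocyte-like nuclei were the higher in 2 of 6 libraries. With the library total alone the difference was -0.48 ± 0.14 (edgeR adjusted p = 0.0033), short of the limit of 0.5 on the fold change, so its direction rests on the scaling. The levels that follow are in CPM without TMM. Goblet-like nuclei led at 208 ± 33.8 CPM, stem/TA-like nuclei followed at 199 ± 35.4 and cluster 3 at 192 ± 24.5, neighbours that differed by less than the SD of their difference. T-like nuclei stood at 144 ± 35.9 CPM, level with enterocyte-like nuclei at 144 ± 30.8. Goblet-like, stem/TA-like and cluster 3 nuclei were above the non-epithelial mean in 6 of 6 libraries, at 1.23 to 2.57 times.

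Where the promoter was at hand, it is shown for some members that differ in this pattern. Cldn3 and Cldn7 were higher in enterocyte-like nuclei, and Cldn15 was not. For Cldn12, which was also higher there, motif counts are given in place of the sequence. The sequences are from RefSeq on build GRCr8, whereas the counts were made on mRatBN7.2, and each runs from 250 bases before to 50 bases after the gene start, 5′ to 3′ on the gene's strand. RefSeq promoters were at hand for 6 of the 9 members and not for Cldn2, Cldn4 or Cldn23. Capitals mark the GC box GGGCGG and the E-box CACCTG, searched on both strands.
Cldn3, chr12:27346498-27346797, minus strand: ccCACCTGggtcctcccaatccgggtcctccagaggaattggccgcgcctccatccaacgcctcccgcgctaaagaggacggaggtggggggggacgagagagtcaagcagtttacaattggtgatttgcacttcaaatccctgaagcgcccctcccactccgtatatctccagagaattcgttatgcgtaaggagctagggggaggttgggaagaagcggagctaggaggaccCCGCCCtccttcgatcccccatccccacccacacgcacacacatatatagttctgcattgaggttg
Cldn7, chr10:55188420-55188719, plus strand: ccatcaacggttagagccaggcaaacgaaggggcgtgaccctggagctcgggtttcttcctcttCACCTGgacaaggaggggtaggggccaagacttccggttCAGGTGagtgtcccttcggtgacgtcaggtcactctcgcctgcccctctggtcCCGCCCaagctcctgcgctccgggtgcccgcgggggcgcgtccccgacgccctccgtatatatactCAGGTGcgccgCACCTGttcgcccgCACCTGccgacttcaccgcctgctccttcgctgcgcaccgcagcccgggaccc
Cldn15, chr12:25343576-25343875, minus strand: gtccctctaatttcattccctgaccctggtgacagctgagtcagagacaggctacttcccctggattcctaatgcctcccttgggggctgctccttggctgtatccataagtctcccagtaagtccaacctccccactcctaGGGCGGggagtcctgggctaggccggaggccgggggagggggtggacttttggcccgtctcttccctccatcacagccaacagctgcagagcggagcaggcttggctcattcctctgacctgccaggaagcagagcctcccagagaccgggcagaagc
Each of the 3 held 1 GC box, which 33.1% of 33365 promoters of this length held at least once. The E-box matched 5 times in the Cldn7 promoter, 1 time in that of Cldn3 and in none for Cldn15, while 18.9% of all promoters held it. Neither the TATA box TATAAA (14.2% of all promoters) nor the Cdx core TTTATNG (11.2%) matched in these 3. The Cldn12 promoter held 1 Cdx core and no GC box, E-box or TATA box. Among these members higher in enterocyte-like nuclei, E-box matches thus numbered 5 in Cldn7, 1 in Cldn3 and 0 in Cldn12. A match is a run of letters and was not tested as a binding site.

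Cldn3 and Cldn7 had their highest median ratios to the non-epithelial mean in the enterocyte-like clusters 6 and 9. In clusters 6 and 9 Cldn3 stood at 1.78 to 5.47 times the non-epithelial mean of the same library in all 6 libraries, and in cluster 4 at 0.888 to 2.69 times. In cluster 9, which was led by the bile acid binding protein gene Fabp6, Cldn7 was at 2.36 to 6.56 times. In cluster 6 Cldn7 was 424, 159 and 407 CPM in CON and 634, 482 and 476 in SAP, and Cldn12 was 11.2, 15.2 and 34.5 CPM in CON and 36.2, 37.2 and 35.5 in SAP. Both were without overlap (3.39% of all genes were higher without overlap in cluster 6, exact permutation p = 0.1 each, the smallest possible), and for Cldn12 the nearest CON and SAP libraries were at 34.5 and 35.5 CPM. These were found after looking at 3 clusters and 9 members. In cluster 6, Cldn12 was at 0.993 times the non-epithelial mean in CON replicate 1, and at 1.52 to 3.22 times in the other libraries. Cldn7 was at 1.18 times in CON replicate 2, and at 3.56 to 6.04 times in the others. The lowest CON value of each gene was thus close to background. In cluster 4, Cldn7 was 205 ± 124 CPM in CON and 206 ± 37.8 in SAP.

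**Figure D4:**
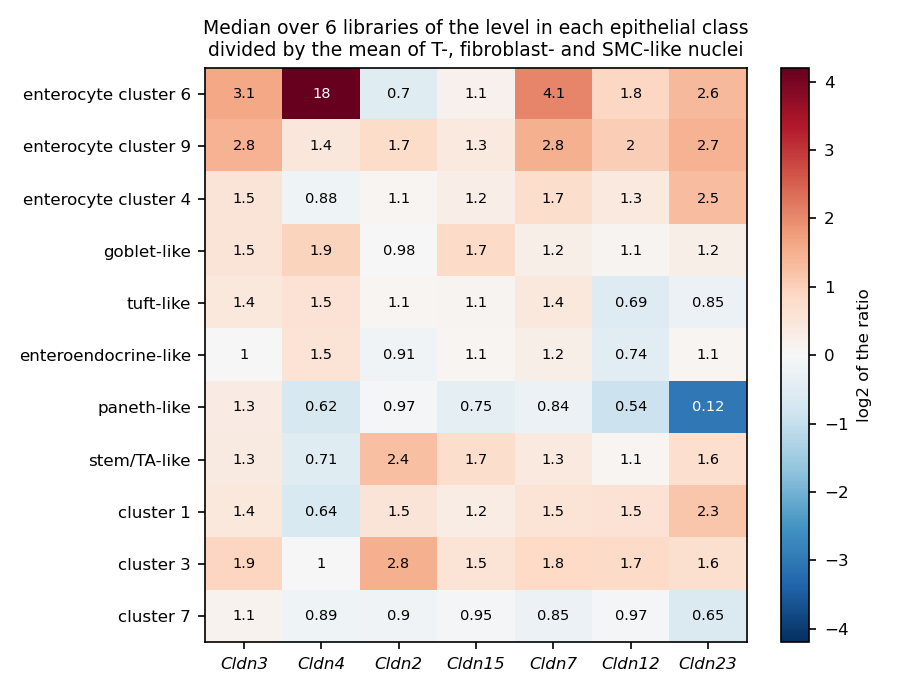
Median over 6 libraries of the level of each claudin (columns) in each epithelial class or cluster (rows) divided by the mean level of T-, fibroblast- and SMC-like nuclei of the same library, with the ratio printed and its log2 as colour. Cldn4 in cluster 6 has a median ratio of 18, Cldn7 4.1 and Cldn3 3.1 there, whereas Cldn2 is highest in cluster 3 and stem/TA-like nuclei.

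The difference between SAP and CON was then compared between enterocyte-like and stem/TA-like nuclei. In enterocyte-like nuclei the log2 fold change of Cldn4 was 1.49 ± 0.52, on 132, 187 and 420 TMM-scaled CPM in CON and 719, 358 and 1005 in SAP, which overlap (edgeR adjusted p = 0.751, where 0% of all genes passed). Cluster 6, where Cldn4 was highest, made up 13.4%, 28.5% and 36.2% of the enterocyte-like nuclei of CON against 33.6%, 33.5% and 43.5% of those of SAP, which overlap, and the part of this mix in the value was not tested. In stem/TA-like nuclei it was 1.54 ± 0.38 (edgeR adjusted p = 0.383, where 0.00791% of all genes passed). The difference of the effects was 0.15 ± 0.76 on the log2 scale (edgeR adjusted p = 1.00), an SE too wide to tell equal effects from clearly unequal ones. Because the stem/TA-like level of Cldn4 was read as background, this compares enterocyte-like nuclei with a background level. It cannot address an effect in crypt cells. No member was called in this interaction, and 0% of all genes were, with 3.97% at an unadjusted p under 0.05.

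The other genes of the junction were counted from lists. Of 20 tight junction partners tested in epithelial nuclei, 15 were higher and 5 lower in SAP and none was called, with a median log2 fold change of 0.33 beside 0.00 over all genes tested. The extremes were Pard6b, a polarity adaptor, at 1.32 ± 0.33, F11r, which encodes the junctional adhesion molecule A, at 0.97 ± 0.27, Mpdz at -0.32 ± 0.46 and Prkci, an atypical protein kinase C, at -0.63 ± 0.20. Pard6b was 10.2, 11.7 and 21.1 TMM-scaled CPM in CON and 37.2, 32.4 and 37.7 in SAP, and its adjusted p by edgeR was 0.389. Of 16 claudin regulators tested, 13 were higher and 3 lower and none was called, with a median of 0.21. Egfr, the epidermal growth factor receptor, was at 0.79 ± 0.31, the membrane protease gene St14 at 0.60 ± 0.25, the vitamin D receptor gene Vdr at -0.42 ± 0.25 and the kinase gene Wnk4 at -0.45 ± 0.31. Within enterocyte-like nuclei the lists had medians of 0.10 and 0.01 and within stem/TA-like nuclei 0.08 and 0.16, again with none called (0% and 0.00791% of all genes passed).

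Of the other claudins, 12 of 15 listed were in the tables, and 4 passed the filter in epithelial nuclei, none of them called. Cldn5, the claudin of blood vessels, was highest in endothelial-like nuclei at 50.5 CPM over all libraries, or 103 of its 282 UMIs. Cldn10 and Cldn14 were highest in cluster 13, an unnamed non-epithelial group, at 23.9 and 19.9 CPM on 59 and 49 UMIs.

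The genes most like each member over 21 classes and clusters were found by Pearson's r of the mean log2(CPM + 1), as a description. All points share the 6 libraries. Some of the 21 groups were too small for the fits, and fat-like and mesothelial-like nuclei numbered 0 in SAP replicate 1. Cldn8 had at least 3 UMIs in only 10 of the 21 groups, which limits its r. Cldn23 was most like Abo3 at an r of 0.90 and Ocln, which encodes the junction protein occludin, at 0.89. Cldn3 was most like Lsr, which encodes the tricellular junction protein angulin-1, at 0.85. Cldn7 was most like Naaladl1 and the polarity gene Crb3, both at 0.89, Cldn2 like Nlrp6 at 0.85, Cldn15 like Pex16 at 0.89, Cldn12 like Tmem86b at 0.87, Cldn8 like Krtcap3 at 0.86 and Cldn4 like Cyp3a9 at 0.82. Between members the highest r was 0.69, for Cldn3 with Cldn23 and for Cldn2 with Cldn8.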

How the data were processed

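Single-nucleus RNA was measured in ileum of 3 CON and 3 SAP rats. The deposited files hold UMI counts per gene and barcode, made by the authors and not normalized. The submitters' processing notes name Seurat 4.3.0 and build mRatBN7.2; the study's methods name dnbc4tools for the count matrix. Nuclei were kept with at least 1200 UMIs, at least 500 genes and at most 5% mitochondrial UMIs, as in the study's methods, and the depth of a library was its UMI total. Clusters were made from 2000 variable genes, 30 principal components, a reimplementation of Harmony over libraries, 20 neighbours and Leiden at resolution 0.8, and named from fixed marker lists where a list led by at least 0.8. A Paneth name further needed an alpha-defensin among the leading genes. Cluster 7 (1404 nuclei) scored 1.76 on the Paneth list and 0.47 on the stem list, and it stayed unnamed by this rule. No doublet was removed in the main values, since the Scrublet threshold marked 0% of nuclei; an alternative left out the top 5% by score. Barcode names are serial numbers within a library, so shared names carry no identity.

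UMI counts were summed per library and class (at least 10 nuclei in each library) and fitted over all genes with the quasi-likelihood test of edgeR 4.0.16 (TMM scaling, filterByExpr, robust), with DESeq2 1.42.0 as an alternative. A call needed a Benjamini-Hochberg adjusted p below 0.05 together with a log2 fold change of 0.5 or more in size. The contrast of classes had the rat as a block. CPM are UMIs per 1000000 UMIs of a class and library. The epithelial fit, checked on simulated data, recovered 193 of 194 changed genes with 9 false calls among 17064 genes for all epithelial nuclei. The interaction fit recovered 152 of 192 with 8 false calls among 13713 genes. The size of the changes and the spread between libraries were set in the simulation and not taken from these rats. The recovery therefore does not give the power of the fits to these data. Replicate numbers from the labels were checked for pairing: deviations of same-numbered libraries from their group means correlated at 0.55, 0.16 and 0.53 in all nuclei, and at 0.57, 0.04 and 0.43 in epithelial nuclei. Libraries with different numbers ran from -0.60 to 0.20 in epithelial nuclei. The main SAP fits and the permutation tests left the libraries unpaired. The fit with the replicate number as a block was an alternative. Exact permutation tests were two-sided. All 9 members are named whatever their values; of other lists, genes called and the 2 highest and 2 lowest log2 fold changes are named; 3 most alike genes were sought per member with at least 3 UMIs in 8 classes, among genes of at least 5 CPM. Members, lists and tests were chosen with earlier results of these data known. Promoters come from RefSeq on GRCr8.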

Additional observations from a re-analysis of the deposited data

How the results depend on the processing

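The member counts moved as follows. DESeq2 called 1 member, Cldn4, in all nuclei and 1, Cldn4, in all epithelial nuclei, where edgeR called 0, and 3 member tests over classes, all Cldn4, in goblet-like, stem/TA-like and cluster 3 nuclei. Over classes, 1 was called with the library total alone (cluster 3), 6 with every gene of at least 1 UMI tested, and 0 to 1 with a library left out, the 1 being Cldn4 in tuft-like nuclei without SAP replicate 3. All of these were Cldn4. The 6 were in goblet-like, tuft-like, stem/TA-like, T-like, cluster 1 and cluster 3 nuclei. In stem/TA-like and cluster 1 nuclei Cldn4 was read as background, and T-like nuclei are part of the non-epithelial mean. Over all class fits DESeq2 called 0.204% of genes, the library total alone 0.0945% and every gene tested 0.626%, and tuft-like nuclei without SAP replicate 3 called 1.75%, against 0.0376% in the main setting. The cause of these changes was not tested. The count for enterocyte-like against stem/TA-like nuclei stayed at 5 to 6 and that for the interaction at 0 under all 14 alternatives. The log2 fold change of Cldn4 stayed positive under every alternative. In epithelial nuclei it was 1.49 to 2.29, with adjusted p by edgeR or DESeq2 from 0.000235 to 0.929. The 1.49 is a ratio of mean CPM outside cluster 6 and not a fitted value. In enterocyte-like nuclei the log2 fold change of Cldn4 was 0.89 to 2.12 and in stem/TA-like nuclei 0.95 to 1.82. With the replicate block, which pairs libraries by number, it was 1.95 in epithelial nuclei (edgeR adjusted p = 0.347), and the block changed no member's call. Over classes, 117 genes were called with the block, 742 by DESeq2 and 49 in the main setting.

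Members that were not called changed sign in these settings. The depth class named below is a covariate that marks the libraries listing barcodes under 1000 UMIs, and is not their UMI total. In epithelial nuclei Cldn2 was 0.0076 with the replicate block and 0.088 outside enterocyte cluster 6, Cldn3 -0.12 at no more than 1% mitochondrial UMIs and -0.021 without integration, and Cldn15 0.084 at no more than 1% mitochondrial UMIs. In enterocyte-like nuclei Cldn3 was 0.092 with the replicate block and 0.13 without integration, Cldn7 -0.012 with DESeq2, -0.037 with every gene tested and -0.44 at 1% mitochondrial UMIs, and Cldn23 -0.35 at 1%. In stem/TA-like nuclei Cldn2 was -0.10 with every gene tested, -0.00049 with the depth class, -0.23 at 1% and -0.016 at resolution 0.4, Cldn3 -0.17 at 1%, Cldn7 0.0070 with the library total alone, 0.0089 with the replicate block and 0.00055 with the depth class, Cldn12 0.13 with thinned nuclei, and Cldn15 -0.085 with every gene tested and -0.13 at 1%. With a library left out, the values ran in epithelial nuclei from -0.48 to 0.57 for Cldn2, -0.29 to 1.17 for Cldn3 and -0.20 to 0.12 for Cldn15. In enterocyte-like nuclei they ran from -0.73 to 0.66 for Cldn2, -0.81 to 1.04 for Cldn3, -0.40 to 0.99 for Cldn7, -0.13 to 0.14 for Cldn15 and -0.13 to 1.01 for Cldn23. In stem/TA-like nuclei they ran from -0.25 to 0.41 for Cldn2, -0.28 to 0.69 for Cldn3, -0.20 to 0.15 for Cldn7, -0.20 to 0.050 for Cldn12, -0.24 to 0.18 for Cldn15 and -0.10 to 0.61 for Cldn23. The highest values of Cldn2, Cldn3 and Cldn7 in epithelial and enterocyte-like nuclei came without CON replicate 1. Without integration no stem/TA-like fit was obtained. The sum outside cluster 6 was added after the data were seen, and its values are ratios of mean CPM. Cldn1 and Cldn8 are limited by their UMIs.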
